A study of Homo sapiens with 6 samples.

Results

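The EGF family ligands and ERBB receptors were examined in a normal human thyroid cell line. The members were the loci of the gene count table whose symbols were AREG, EREG, HBEGF, TGFA, BTC, NRG1, EGFR, ERBB2 or ERBB3, which gave 9 of 22354 loci, comprising 6 ligands and 3 receptors. The study asked how the circadian transcription factor BMAL1 bears on senescence of thyroid cells. RNA sequencing was performed on HTori-3.1, an immortalised line derived from normal thyroid follicular epithelium. All 6 libraries came from cells given etoposide at 2 µM, a topoisomerase II poison that breaks DNA and drives cells into senescence. The treatment field gives 12 h of exposure and the protocol gives 24 h. The 3 control libraries were labelled wild type, and the other 3 were labelled BMAL1 knockout, made with lentiviral Cas9 and a guide RNA, puromycin and selection of single clones. The sources used here do not state whether the knockout libraries come from 1 clone or what the control cells carried. Nothing says that the replicates were separate cultures, so p-values measure the spread between these libraries, which may be technical.

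Ligands of this family are made as membrane-anchored precursors, and metalloproteases of the ADAM family release the active growth factor. A ligand brings receptors together as dimers, and the receptors then signal through adaptors, RAS and the ERK kinases. AREG, EREG, HBEGF, TGFA and BTC bind EGFR, EREG, HBEGF and BTC also bind ERBB4, and NRG1 binds ERBB3 and ERBB4. ERBB2 binds no known ligand and acts as a dimer partner, and ERBB3 has weak kinase activity of its own. EGF is a known growth factor for thyroid follicular cells.

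The targeted gene was examined first. BMAL1 had 304, 326 and 409 counts in the control libraries and 764, 603 and 860 counts in the libraries labelled knockout. These were 11.3, 12.2 and 14.6 CPM (counts scaled by library size) against 17.9, 19.8 and 19.4 CPM. All 3 libraries labelled knockout were above all 3 control libraries, which goes against the direction expected of a lost transcript. The log2 fold change was 0.58 (SE 0.11, 95% interval 0.33 to 0.83), with an adjusted p of 0.0204 in edgeR's quasi-likelihood test (Benjamini-Hochberg). BMAL1 was called in 2 of the 6 fits that left out a library, those without control replicate 3 and without the library labelled BMAL1 knockout replicate 1. Over the 6 fits its log2 fold change was 0.50 to 0.70, with an adjusted p of 0.0168 to 0.113 in edgeR's quasi-likelihood test. A frameshift can leave a transcript in place. The study shows a western blot of BMAL1 in its control and knockout lines as the check of the knockout. Protein was not analysed here. Every direction below is therefore between the libraries labelled BMAL1 knockout and the control libraries.

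Total counts were 26893063, 27029060 and 28513703 in the control libraries and 43148059, 29860233 and 43563391 in the libraries labelled knockout. The library labelled BMAL1 knockout replicate 1 stood apart from its group. Its chi-square per degree of freedom was 29.2 against replicate 2 and 42.3 against replicate 3, whereas replicates 2 and 3 gave 7.09 and pairs of control libraries gave 5.21 to 13.8. Values that leaving it out changed by over 1.5 times are given with and without it for the members and the other genes of the family.

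The thyroid label was checked against defining markers. PAX8 was present at 124, 125 and 151 CPM in the control libraries and at 92.5, 106 and 130 CPM in the libraries labelled knockout. FOXE1 was at 47.5, 47.7 and 48.8 CPM in the control libraries and at 36.2, 42.1 and 41.6 CPM in the libraries labelled knockout. The groups overlapped for PAX8 and not for FOXE1. The log2 fold changes were -0.28 (SE 0.12) for PAX8 and -0.26 (SE 0.09) for FOXE1. That of PAX8 ranged from -0.43 to -0.18 when 1 library was left out. Both genes were at an unadjusted p under 0.05 in edgeR and neither was called. The part of these differences in the results below was not tested. TG, TSHR, SLC5A5 and DUOX2 were each at 13 counts or fewer in every library, and NKX2-1 had 0 counts in all 6.

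Among the epithelial markers the keratins KRT7, KRT8 and KRT18 were abundant, whereas EPCAM and CDH1 did not exceed 17 counts in any library. This list summed to 2990, 3044 and 2897 CPM in the control libraries and to 2540, 2482 and 2563 CPM in the libraries labelled knockout, with KRT8 the most abundant. KRT18 was downregulated (log2 fold change -0.50, SE 0.08), with an adjusted p of 0.00583 in edgeR's quasi-likelihood test (Benjamini-Hochberg). KRT8 was at -0.28 (SE 0.07), and KRT7 at 0.10 (SE 0.07) and KRT19 at 0.23 (SE 0.13) had positive log2 fold changes, which ranged from 0.06 to 0.13 and from 0.13 to 0.31 when 1 library was left out. EPCAM had 0, 10 and 0 counts against 10, 16 and 17, too few for a stable value. None of these 4 was called by edgeR with all 6 libraries, and the median of the 5 tested genes was 0.10. The part of these keratin differences in the results below was not tested.

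Markers of other cell types were also measured. The fibroblast list summed to 922, 926 and 789 CPM against 718, 935 and 989 CPM, nearly all of it COL1A1, with DCN and LUM at 0 counts and COL1A2 at 2 counts in 1 library. The endothelial list, led by VWF, summed to 2.05, 1.83 and 2.21 CPM against 1.34, 1.24 and 1.72 CPM, so it was low in every library and lower in those labelled knockout. The 2 tested genes of that list, VWF and CDH5, were not called by edgeR. PECAM1 and KDR, at 8 counts or fewer in each library, were not tested. The leukocyte list, led by CD68, summed to 19.3, 19.97 and 18.0 CPM against 14.2, 12.5 and 13.1 CPM, with CD3E at 0 counts. Of that list PTPRC was downregulated, from a mean of 6.40 ± 0.15 CPM (SD, n = 3) to 2.36 ± 0.34 CPM (SD, n = 3), with an adjusted p of 0.00127 in edgeR's quasi-likelihood test (Benjamini-Hochberg). CD14 had a positive log2 fold change of 0.99 (SE 0.47), and CD68 was at -0.27 (SE 0.13), neither of them called by edgeR. The part of the PTPRC difference in the results below was not tested.

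Of the 9 members, 8 passed the filter on low counts, and 1 was called at an adjusted p under 0.05 by edgeR's quasi-likelihood test. That gene was the ligand TGFA, which was downregulated. Over all 14860 genes tested, 373 genes or 2.51% were called in either direction, 161 or 1.08% as higher and 212 or 1.43% as lower. No member was called higher by edgeR, DESeq2 or limma-voom, and 0 of the 8 were higher at an unadjusted p under 0.05, beside 9.08% of all genes tested. TGFA was called lower by all 3 tools. Among the 8 tested members 4 had a positive and 4 a negative log2 fold change, with a median of -0.03 beside 0.01 over all genes tested. In bulk RNA, fewer cells that express a gene and less RNA per cell cannot be told apart.

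**Figure D1:**
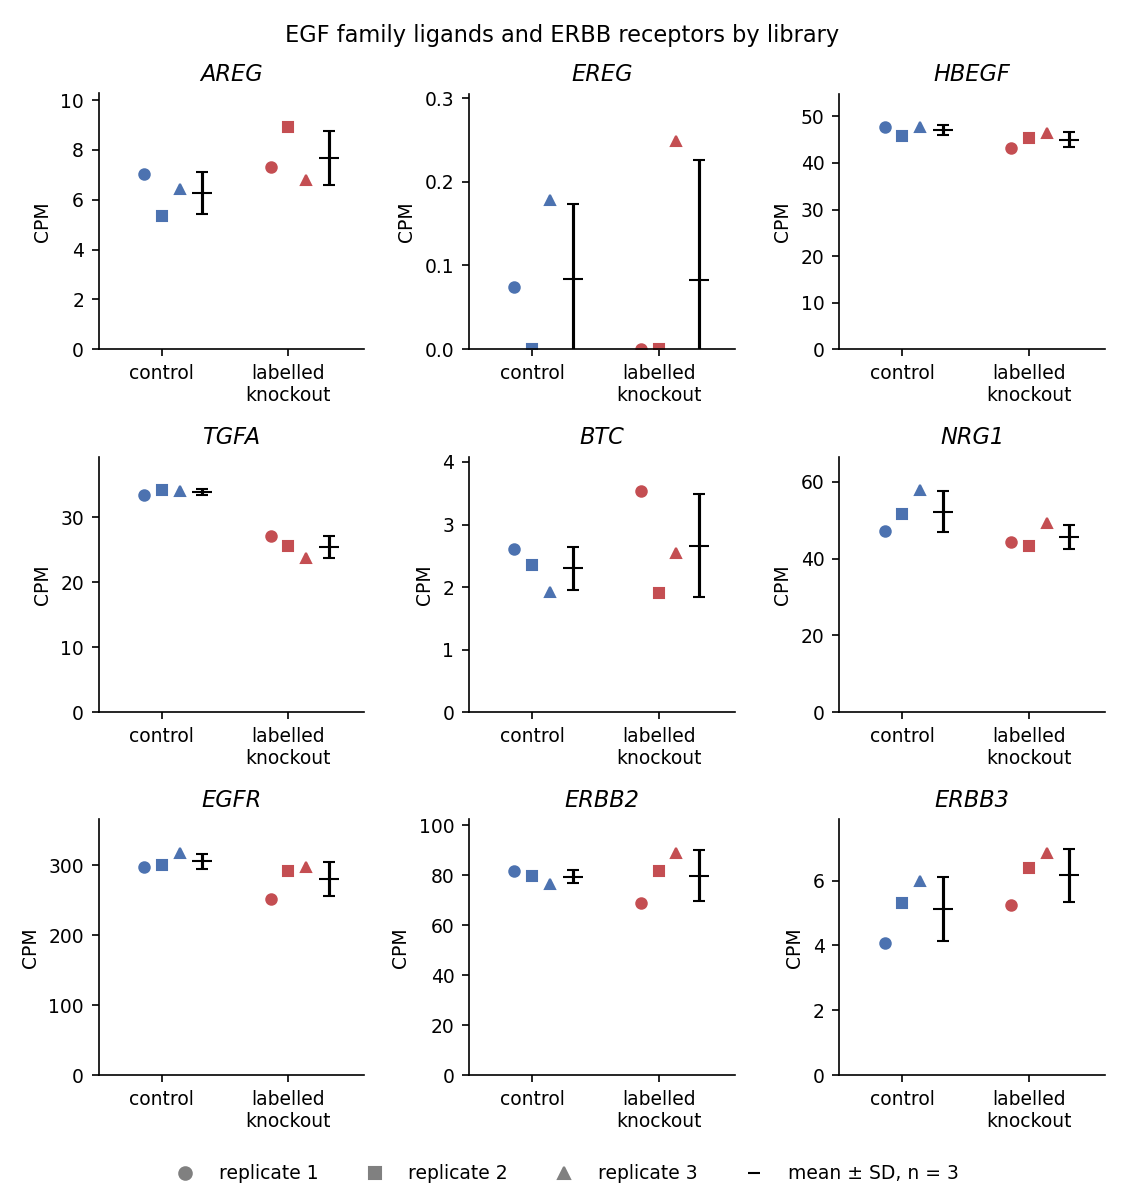
Level of each of the 9 members in CPM (vertical axis, from 0) in the 3 control libraries (blue) and the 3 libraries labelled BMAL1 knockout (red), with a symbol for each replicate number and black bars for the mean ± SD. TGFA lies at 33.4 to 34.2 CPM in the control libraries and at 23.7 to 27.1 CPM in the others, whereas the groups overlap for AREG, EREG, HBEGF, BTC, NRG1, ERBB2 and ERBB3.

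TGFA encodes transforming growth factor alpha, an EGFR ligand made by many epithelia. Its gene lies on the minus strand at chr2:70447284-70554193 (hg38), with the noncoding gene TGFA-IT1 inside an intron. TGFA had 896, 914 and 954 counts in the control libraries and 1156, 782 and 1049 counts in the libraries labelled knockout. Scaled for depth, these were 33.4, 34.2 and 34.1 CPM against 27.1, 25.6 and 23.7 CPM. The control libraries lay close together, and every library labelled knockout was below all of them. The log2 fold change was -0.41 (SE 0.09, 95% interval -0.60 to -0.22), with an adjusted p of 0.0310 in edgeR's quasi-likelihood test (Benjamini-Hochberg). On the linear scale TGFA fell by 24.9%. The groups did not overlap for 23.3% of all genes tested, and for 11.5% the libraries labelled knockout were all lower, so separation of the groups alone is common here. The call is close to the threshold. Of 11 other settings TGFA was called in 10, and it was not called with a block on replicate number (the replicate block). When each library was left out in turn, TGFA was called in 1 of 6 fits, the fit without the library labelled BMAL1 knockout replicate 1 (log2 fold change -0.46, adjusted p 0.0102), and over the 6 fits the adjusted p of edgeR's quasi-likelihood test ranged from 0.0102 to 0.142 while the log2 fold change stayed between -0.46 and -0.36.

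The promoter window of TGFA is shown because TGFA is the member that was called, and that of AREG because it was the only member window with TGACGTCA. AREG was picked after the motif search, and the ERBB2 and EGFR windows with TGANTCA are not printed. RefSeq promoter windows (GRCh38.p14, 250 bases before to 50 after a start) matched 7 of the 9 members, with 9 windows in all, and NRG1 and ERBB3 had no match. Printed are the bases upstream of the start that lie outside every annotated exon of the gene, 103 bases at chr2:70553974-70554076 on the minus strand for TGFA and 250 bases at chr4:74444886-74445135 on the plus strand for AREG. TGFA has 2 windows, and the stretch is from the one farther upstream. It lies before the RefSeq start used but inside the gene as GENCODE annotates it, in an intron of a longer transcript with no defined coding sequence. Capitals mark TGACGTCA, the cyclic AMP response element.
TGFA: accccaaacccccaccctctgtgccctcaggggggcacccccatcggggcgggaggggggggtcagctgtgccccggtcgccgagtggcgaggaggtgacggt
AREG: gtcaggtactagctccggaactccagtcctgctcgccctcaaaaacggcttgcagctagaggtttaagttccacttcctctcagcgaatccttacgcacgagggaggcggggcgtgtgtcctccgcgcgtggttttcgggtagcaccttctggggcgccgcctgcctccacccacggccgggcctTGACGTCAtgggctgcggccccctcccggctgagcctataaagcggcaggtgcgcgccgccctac

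Both strands of each 300-base window were searched for 3 motifs. CACGTG, the E-box that BMAL1 with its partner CLOCK is known to bind, was in 7.26% of all 35116 windows and in none of the 9 member windows. TGANTCA, in which N is any base, includes the AP-1 element but is wider than it. It was in 7.71% of all windows, and was found in ERBB2 and in the second window of EGFR. TGACGTCA was in 1.85% of all windows and, among the members, in AREG, where its first base lies 65 bases before the start. These matches describe letters in a window and not binding.

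The other EGFR ligands did not pass the test. AREG encodes amphiregulin, which is released by ADAM17. It was at 7.04, 5.35 and 6.43 CPM in the control libraries and at 7.33, 8.91 and 6.79 CPM in the libraries labelled knockout. The groups overlapped, since control replicate 1 was above the library labelled BMAL1 knockout replicate 3. The log2 fold change was 0.29 (SE 0.15, 95% interval -0.05 to 0.62), with an adjusted p of 0.371 in edgeR's quasi-likelihood test (Benjamini-Hochberg). It was 0.17 without the library labelled BMAL1 knockout replicate 2 and 0.19 without control replicate 2.

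HBEGF encodes heparin-binding EGF-like growth factor. It was at 47.6, 45.8 and 47.7 CPM in the control libraries and at 43.2, 45.4 and 46.4 CPM in the libraries labelled knockout. The groups overlapped, and the interval was narrow, with a log2 fold change of -0.06 (SE 0.08, 95% interval -0.24 to 0.11), and of -0.04 without the library labelled BMAL1 knockout replicate 1. BTC encodes betacellulin and was near 2 to 3 CPM, at 2.61, 2.36 and 1.93 CPM in the control libraries and at 3.54, 1.90 and 2.55 CPM in the others. Its highest value was in the library labelled BMAL1 knockout replicate 1. The log2 fold change of BTC was 0.22 (SE 0.24) with that library and -0.04 without it, and its direction therefore rests on 1 library.

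EREG encodes epiregulin and was close to the limit of detection. It had 2, 0 and 5 counts in the control libraries and 0, 0 and 11 counts in the libraries labelled knockout. The counts came from 3 libraries spread over both groups, and the gene was removed by the filter and not tested. A count of 0 allows up to 3 counts, which is 0.112 CPM in control replicate 2 and 0.0703 and 0.0983 CPM in the libraries labelled BMAL1 knockout replicates 1 and 2. Such limits cover counting error only.

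NRG1 encodes neuregulin 1, the ligand of ERBB3 and ERBB4. It was at 47.3, 51.6 and 57.9 CPM in the control libraries and at 44.3, 43.4 and 49.3 CPM in the libraries labelled knockout. The groups overlapped through control replicate 1 and the library labelled BMAL1 knockout replicate 3. The log2 fold change was -0.19 (SE 0.10, 95% interval -0.40 to 0.01), with an adjusted p of 0.328 in edgeR's quasi-likelihood test (Benjamini-Hochberg), and it was -0.11 without control replicate 3.

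Among the receptors, EGFR had the highest level. It was at 298, 301 and 318 CPM in the control libraries and at 252, 291 and 297 CPM in the libraries labelled knockout. The groups did not overlap, but control replicate 1 and the library labelled BMAL1 knockout replicate 3 nearly met, and the lowest value was in the library labelled BMAL1 knockout replicate 1. The log2 fold change was -0.12 (SE 0.08, 95% interval -0.30 to 0.05) with that library and -0.06 without it, and EGFR was not called in either fit. EGFR-AS1 overlaps exons of EGFR on the opposite strand, and whether counting used strand is not given in the sources used here, so reads of the 2 genes cannot be told apart.

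ERBB2 was at 81.8, 79.9 and 76.6 CPM in the control libraries and at 68.8, 81.8 and 88.9 CPM in the libraries labelled knockout. The latter spanned the whole control range, and the log2 fold change was 0.01 (SE 0.10, 95% interval -0.20 to 0.22), with a sign that changed between settings. It was 0.10 without the library labelled BMAL1 knockout replicate 1. ERBB2 shares exonic bases with MIEN1 and PGAP3 on the opposite strand, whose log2 fold changes were 0.19 and 0.16 and which were not called.

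ERBB3 was at 4.06, 5.31 and 6.00 CPM in the control libraries and at 5.25, 6.39 and 6.84 CPM in the libraries labelled knockout. The groups overlapped, and the log2 fold change was 0.26 (SE 0.17, 95% interval -0.11 to 0.64). It was 0.12 without control replicate 1 and 0.40 without control replicate 3. ERBB3 shares exonic bases on its own strand with ENSG00000257411, which had 0 counts.

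**Figure D2:**
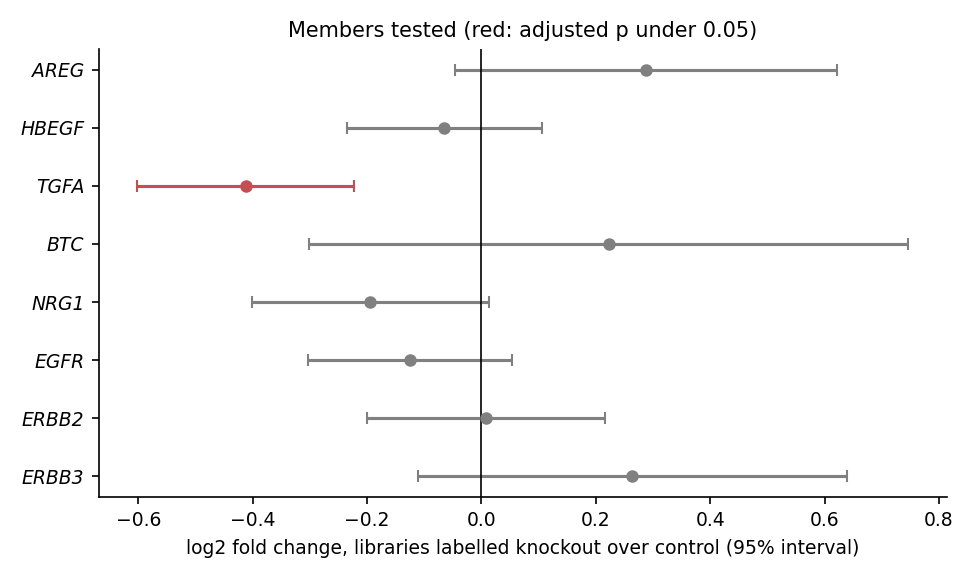
Log2 fold change of the 8 tested members between the libraries labelled BMAL1 knockout and the control libraries (horizontal axis), with 95% intervals from edgeR's fit and red for an adjusted p under 0.05. The interval of TGFA, -0.60 to -0.22, lies below 0, and those of the other 7 include 0.

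Levels of different genes were compared per exon length, as RPKM, the CPM divided by the kilobases of the union of annotated exons. In the control libraries the order was EGFR at 19.2 ± 0.67 RPKM (SD, n = 3), HBEGF at 15.7 ± 0.37, ERBB2 at 7.70 ± 0.26, TGFA at 6.89 ± 0.086 and AREG at 3.82 ± 0.52. NRG1 followed at 2.44 ± 0.25 RPKM, then BTC at 0.866 ± 0.13, ERBB3 at 0.438 ± 0.084 and EREG at 0.0148 ± 0.016. No 2 neighbours in this order overlapped among the control libraries. Over all 6 libraries EGFR overlapped HBEGF, ERBB2 overlapped TGFA and TGFA overlapped AREG. With the length of the canonical transcript, an alternative chosen after seeing the data, ERBB3 and BTC changed places and overlapped among the control libraries. AREG and NRG1 kept their places with that length and overlapped.

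HBEGF made up 52.9 ± 0.23% of summed ligand RPKM in the control libraries and 53.6 ± 2.0% in the libraries labelled knockout (SD, n = 3). The share of TGFA was 22.5, 24.1 and 22.9% in the control libraries and 19.8, 18.2 and 17.3% in the others. The share of AREG was 14.2, 11.3 and 12.9% against 16.0, 19.0 and 14.9%. Both shares separated the groups, TGFA lower and AREG higher in the libraries labelled knockout, and shares of a sum are not independent of each other.

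Summed ligand level was 30.2, 28.8 and 30.3 RPKM in the control libraries and 27.8, 28.6 and 27.8 RPKM in the libraries labelled knockout. The groups did not overlap, and the log2 ratio was -0.09, with a 2-sided exact permutation p of 0.1, the smallest that 3 against 3 can give. Summed as CPM, without division by length, the ligands gave a log2 ratio of -0.16. Summed receptor level was 26.97, 27.1 and 27.9 RPKM against 22.9, 26.8 and 27.8 RPKM, and these ranges overlapped. Its log2 ratio was -0.08 (2-sided exact permutation p of 0.4), and it was -0.0003 without the library labelled BMAL1 knockout replicate 1 and -0.14 without replicate 3 of that group.

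**Figure D3:**
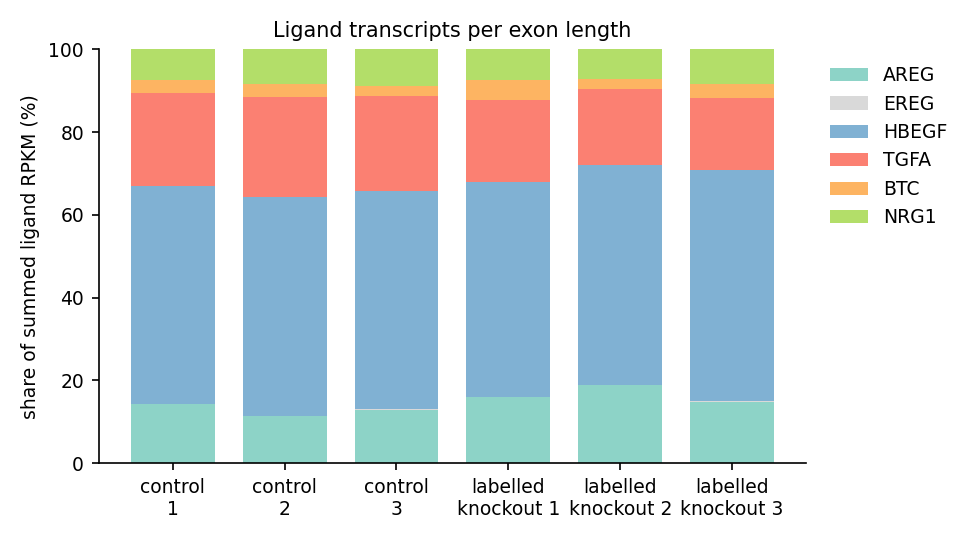
Share of each of the 6 ligands in summed ligand RPKM (vertical axis, percent) in each library. HBEGF takes 51.9 to 55.8% in every library, TGFA is at 22.5 to 24.1% in the control libraries and at 17.3 to 19.8% in the others, and EREG is too low to be seen.

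The 6 other genes of the family were low. EGF, NRG2 and NRG4 passed the filter, and none was called by edgeR, DESeq2 or limma-voom. In edgeR 0 of them were at an unadjusted p under 0.05, beside 16.9% of all genes tested. Their log2 fold changes were -0.21, -0.23 and 0.70. When 1 library was left out these ranged from -0.34 to -0.01 for EGF, from -0.29 to -0.14 for NRG2 and from 0.49 to 0.99 for NRG4. The value of EGF nearest 0 and the highest of NRG4 came without the library labelled BMAL1 knockout replicate 1, and the value of NRG2 nearest 0 came without replicate 3 of that group. NRG2 was the most abundant of them, at 3.17, 3.55 and 3.18 CPM in the control libraries and at 3.02, 2.98 and 2.44 CPM in the libraries labelled knockout, which did not overlap. EPGN had at most 3 counts and ERBB4 at most 17 counts in a library, and NRG3 had 0 counts in all 6. ERBB4, the receptor that NRG1, EREG, HBEGF and BTC share, was therefore near the limit of detection.

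Genes for ligand shedding came next. Of the 10 listed, all tested, edgeR, DESeq2 and limma-voom each called 1 lower and 0 higher, beside 1.43% called lower by edgeR over all genes tested. The median log2 fold change was -0.04, beside 0.01 over all genes tested, and it was -0.008 without control replicate 3. In edgeR 2 of the 10 were at an unadjusted p under 0.05, both lower, beside 7.78% of all genes tested that were lower at that threshold. ADAM8, a metalloprotease best known from leukocytes, was at 6.15, 6.47 and 4.57 CPM in the control libraries and at 2.93, 3.11 and 2.82 CPM in the libraries labelled knockout. The groups were well apart, and the log2 fold change was -0.96 (SE 0.17), with an adjusted p of 0.0137 in edgeR's quasi-likelihood test (Benjamini-Hochberg). ADAM8 was called in 4 of the 6 fits that left out a library. The gene with the next smallest p was ADAM15, at a log2 fold change of -0.20 (SE 0.08), which was not called. ADAM17 and ADAM10, the main sheddases of these ligands, had log2 fold changes of 0.16 and 0.02 and were not called. ADAM17 was at 73.7, 70.0 and 76.3 CPM in the control libraries and at 79.8, 81.8 and 84.5 CPM in the libraries labelled knockout. Its groups did not overlap, as for 23.3% of all genes tested, and its value ranged from 0.13 to 0.19 when 1 library was left out. The value of ADAM10 ranged from -0.02 to 0.09 when 1 library was left out, so its direction was not stable.

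Of 16 genes listed for restraint or turnover of the receptors, 15 were tested and 0 were called by edgeR or limma-voom. In edgeR 5 were at an unadjusted p under 0.05, all lower. Over all genes tested 16.9% were at that threshold in either direction and 7.78% were lower. DESeq2 called 2 lower, SH3KBP1 and ERRFI1, beside 379 lower and 256 higher among all 22354 loci. SH3KBP1, an adaptor in receptor endocytosis, had a log2 fold change of -0.30 (SE 0.08) and an adjusted p of 0.0668 in edgeR's quasi-likelihood test (Benjamini-Hochberg). ERRFI1, a feedback inhibitor that binds the EGFR kinase domain, was at 65.4, 66.9 and 67.6 CPM in the control libraries and at 55.1, 54.4 and 55.5 CPM in the libraries labelled knockout. Its groups were well apart, and the log2 fold change was -0.28 (SE 0.07), with an adjusted p of 0.0703 by edgeR's quasi-likelihood test. ERRFI1 and SH3KBP1 were each called in 3 of 11 other settings, and of the 6 fits that left out a library ERRFI1 was called in 1, without the library labelled BMAL1 knockout replicate 1, and SH3KBP1 in 0. LRIG1, named after its values were seen, had a log2 fold change of -0.50 (SE 0.14) and was not called, except with the GC trend removed. The median of the list was -0.01, and its sign was not stable. It was 0.04 without control replicate 3 and -0.05 without the library labelled BMAL1 knockout replicate 1.

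Of 27 adaptors and kinases, from GRB2 and SHC1 to RAS, RAF, MEK, ERK, PI3K, AKT and STAT genes, 0 were called by edgeR, DESeq2 or limma-voom and 0 were at an unadjusted p under 0.05 in edgeR. Over all genes tested edgeR called 2.51%, and 16.9% were at an unadjusted p under 0.05. The log2 fold changes of the 27 genes lay between -0.18 and 0.34, with a median of 0.00. The 2 with the smallest p were AKT1 at -0.18 (SE 0.08) and GAB1 at 0.28 (SE 0.14). AKT1 was at -0.11 without the library labelled BMAL1 knockout replicate 1.

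The ERK response list holds genes that ERK signalling induces, many of which feed back on it. Of its 16 genes, all tested, edgeR called 6 lower and 0 higher, beside 1.43% called lower over all genes tested, and 13 had a negative log2 fold change. In edgeR 11 of the 16 genes were at an unadjusted p under 0.05, 10 of them lower. Over all genes tested 16.9% were at that threshold in either direction and 7.78% were lower. DESeq2 called 8 lower and 1 higher, EGR1, beside 379 lower and 256 higher among all 22354 loci. With limma-voom 6 were called lower and 0 higher, beside 194 lower and 118 higher among all 14860 genes tested. The median was -0.30, beside 0.01 over all genes tested. For 10 of the 16 genes all libraries labelled knockout were below all control libraries, as for 11.5% of all genes tested.

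PHLDA1 was at 61.8, 62.0 and 67.5 CPM in the control libraries and at 34.6, 34.2 and 34.9 CPM in the libraries labelled knockout. CCND1, which encodes cyclin D1, was at 216, 214 and 226 CPM against 139, 135 and 153 CPM. DUSP4, a phosphatase that acts on ERK, was at 19.6, 22.8 and 22.6 CPM against 12.9, 12.8 and 13.2 CPM. In each of the 3 genes the groups were well apart, and the library labelled BMAL1 knockout replicate 1 lay with its group. The log2 fold changes were -0.88 (SE 0.08) for PHLDA1, -0.62 (SE 0.08) for CCND1 and -0.74 (SE 0.10) for DUSP4. Their adjusted p were 0.000217, 0.00217 and 0.00269 in edgeR's quasi-likelihood test (Benjamini-Hochberg).

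The AP-1 gene FOSL1 was at 169, 170 and 151 CPM against 115, 109 and 117 CPM, with a log2 fold change of -0.52 (SE 0.08) and an adjusted p of 0.00505 by edgeR's quasi-likelihood test. The ETS factors ETV4 and ETV5 had log2 fold changes of -0.64 (SE 0.11) and -0.33 (SE 0.07), with adjusted p of 0.0102 and 0.0387 by edgeR's quasi-likelihood test. PHLDA1, CCND1, DUSP4 and FOSL1 were called in all 6 fits that left out a library, ETV4 in 5 and ETV5 in 1. ETV5 was called in 9 of 11 other settings, and not with library totals only (adjusted p 0.0603 in edgeR) or with the replicate block.

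The immediate early gene EGR1 went the other way and is named after its values were seen. It was at 131, 128 and 151 CPM in the control libraries and at 141, 238 and 230 CPM in the libraries labelled knockout. The library labelled BMAL1 knockout replicate 1 lay within the control range. With that library EGR1 was not called by edgeR or limma-voom (log2 fold change 0.57, SE 0.19, in edgeR) and was called higher by DESeq2, and without it the log2 fold change was 0.78 (SE 0.08), with an adjusted p of 0.000472 by edgeR's quasi-likelihood test. Without that library 8 genes of the list were called lower and 1 higher.

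**Figure D4:**
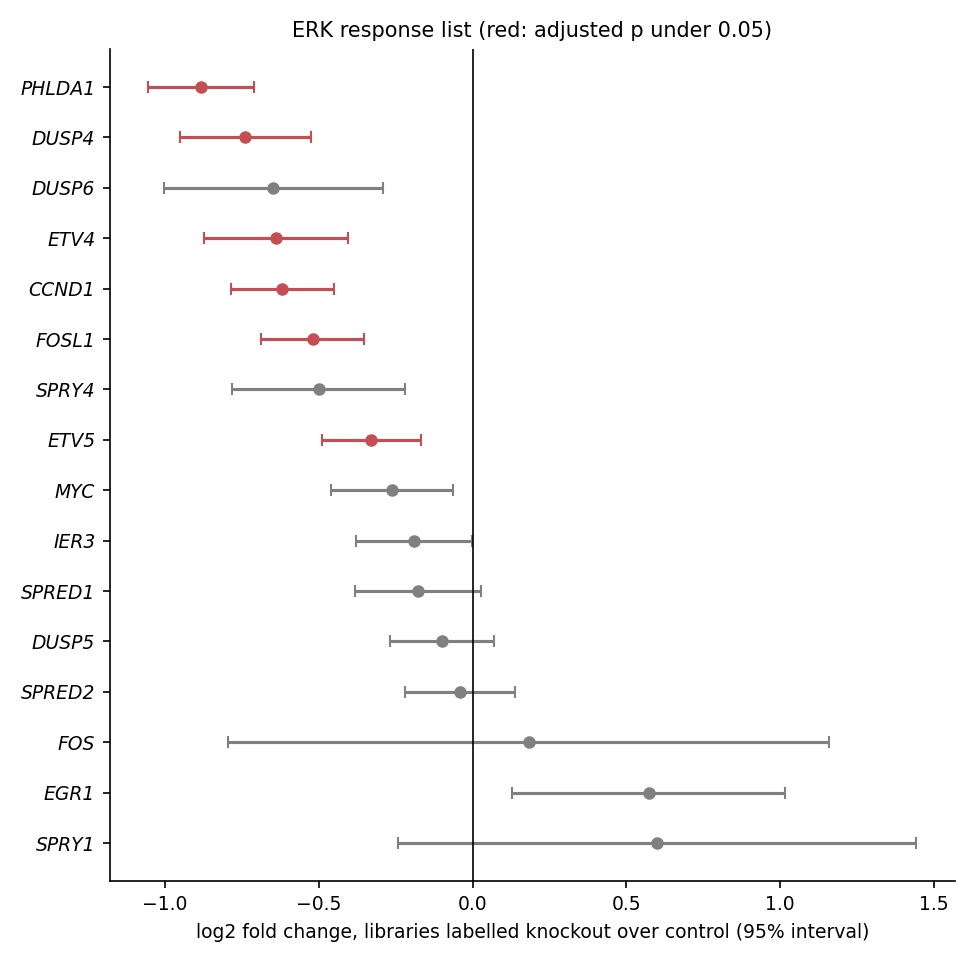
Log2 fold change of the 16 ERK response genes (horizontal axis) with 95% intervals from edgeR's fit, ordered by value, red for an adjusted p under 0.05. The 6 called genes, PHLDA1, DUSP4, ETV4, CCND1, FOSL1 and ETV5, lie between -0.88 and -0.33, and FOS, EGR1 and SPRY1 lie above 0, FOS with a value of -0.09 without the library labelled BMAL1 knockout replicate 3 and SPRY1 with 0.19 without control replicate 1.

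Chromosomal neighbours were compared with each member. The 20 kept genes around TGFA, 10 on each side, all had positive log2 fold changes, with a median of 0.22. The SD of their median level between libraries of a group, pooled over the groups, was 0.053. Of these genes 1 was called higher. That gene was ADD2, the nearest kept gene on one side, with a log2 fold change of 0.37 (SE 0.09) and an adjusted p of 0.0497 in edgeR's quasi-likelihood test (Benjamini-Hochberg). FAM136A, the nearest on the other side, had 0.14 and was not called. TGFA was thus lower among neighbours with higher values. Around the other members the medians of 20 neighbours lay between -0.02 and 0.11, with the highest around EGFR. The nearest kept genes of EGFR were SEC61G at 0.37 and LANCL2 at -0.01, those of HBEGF were PFDN1 at -0.06 and ANKHD1 at 0.17, and those of ERBB3 were RPS26 at 0.01 and PA2G4 at -0.16. Those of NRG1 were WRN at 0.04 and FUT10 at -0.03. AREG and EREG lie beside each other, with MTHFD2L at 0.00 before them, and BTC follows, with PARM1 at 0.11 after it. None of these nearest genes other than ADD2 was called.

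Over the 6 libraries, the 5 genes whose log2 CPM profiles were most like that of TGFA were ITGA2, IFIT2, SRSF9, DDX60 and HERC6, among 12478 annotated genes of at least 1 CPM. Their root mean square differences from TGFA were 0.0299, 0.0301, 0.0329, 0.0453 and 0.0569 in log2 units. Over the genes compared the median was 0.247 and the lowest 1% lay under 0.104. The 5 genes lie below these values because they were chosen as the smallest. ITGA2 encodes an integrin subunit that binds collagen, SRSF9 encodes a splicing factor, and IFIT2, DDX60 and HERC6 are induced by interferon. ITGA2 was at 14.3, 14.5 and 14.7 CPM in the control libraries and at 12.2, 11.0 and 10.0 CPM in the libraries labelled knockout. Its level was lower in each library labelled knockout, as for TGFA, which follows from choosing genes by their likeness to TGFA. ITGA2 was not called (adjusted p 0.0891 in edgeR's quasi-likelihood test), whereas IFIT2, SRSF9, DDX60 and HERC6 were called lower. Lower values in these genes also follow from that choice. The likeness describes 6 libraries.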

How the data were processed

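Total RNA was sequenced on a DNBSEQ-T7. The authors deposited whole-number gene counts for 6 libraries. The submitters' processing notes name fastp 0.20.1 and HISAT2 2.0.4 with hg38, and the annotation and strand setting are not given in the sources used here. From these counts, edgeR 4.0.16 in R 4.3.3 was run with TMM factors and its default filter, which kept 14860 of 22354 loci, a robust quasi-likelihood test and Benjamini-Hochberg adjustment over all loci kept. CPM used TMM library sizes. Lengths, positions and exons came from GENCODE 44, and promoters from RefSeq. Alternatives used DESeq2 1.42.0 and limma 3.58.1. The fit was tested on simulated counts.

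The genes named were all members, the other family genes, BMAL1, in each pathway list those with an adjusted p under 0.05 and in any case the 2 with the smallest p, the overlapping and nearest kept genes, and the 5 profiles most like that of the member with the smallest p. ADAM10, ADAM17, LRIG1, EGR1, FOS and SPRY1 were named outside this rule, after their values were seen. Cell type markers came from their own lists, and those given singly were also chosen after their values were seen. The members and lists were chosen with earlier results of these data known. Proteins were not analysed here, and 1 gene of the thyroid follicular list and the sum of that list are not reported here.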

Additional observations from a re-analysis of the deposited data

How the results depend on the processing

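All other settings kept the direction of TGFA, AREG, HBEGF, NRG1, EGFR and ERBB3. The sign of ERBB2 reversed with limma-voom (-0.000298), without control replicate 3 (-0.02) and without the libraries labelled BMAL1 knockout replicates 2 (-0.01) and 3 (-0.07797), with leave-one-out values from -0.07797 to 0.1036, and that of BTC without replicate 1 (-0.03779), with values from -0.03779 to 0.4054. Members called lower went from 1 to 0 with the replicate block (TGFA, log2 fold change -0.41, adjusted p 0.0677 in edgeR) and at a fold change over 2 with unadjusted p under 0.01, and ranged from 0 to 1 when 1 library was left out. Same-numbered libraries correlated at -0.090, -0.052 and -0.005. Whether they were prepared together is not given in the sources used here and was not tested. With the replicate block 277 genes were called, beside 373 without it, and ETV5 was not called (adjusted p 0.113 in edgeR). With the GC trend removed as well EGR1 was called higher. All genes called were 635 with DESeq2, 1052 with the GC trend removed, 825 with that and the replicate block, 142 at the fold threshold, and 113 to 633 when 1 library was left out. Pathway list genes called, 7 at first, were 12, 13, 13 and 0 in those settings, and 4 to 11 when 1 library was left out. With library totals only, 185 genes were higher and 155 lower, beside 161 and 212. Without robust estimation, chosen after seeing the data, 295 genes were called. With 5 neighbours on each side the median around HBEGF was -0.02939, and with 20 that around TGFA was 0.17. The cause of these differences was not tested. EREG, EPGN and ERBB4 did not pass the count filter and NRG3 had 0 counts, so no fold change is given for them.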
